A study of Mus musculus with 4 samples.

Results

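The genes described here serve the making and the membrane of red blood cells. They are 3 genes of the red cell membrane and its anchoring (Slc4a1, Ank1 and Epb42), 2 transcription factor genes (Gata1 and Klf1), a gene of late red cell maturation (Trim10) and 2 receptor genes (Epor and Tfrc). These 8 genes are 8 of the 23282 rows measured in mouse lung, 7 under their own symbol and Epb42 under its older symbol Epb4.2. They were selected on measured values of these same libraries, so their levels and differences are given as a description, with no test. The study crossed treadmill running (E) with tumor (T) in male CDF1 mice and measured lung RNA in 4 libraries, 1 for each group. The normal control E(-)T(-) had neither, the normal exercise group E(+)T(-) ran every second day at high intensity, the cancer control E(-)T(+) received tumor cells without running, and the cancer exercise group E(+)T(+) had both. The tumor cells were CT26, a murine colorectal carcinoma line given by tail vein, from which cells can lodge in the lung. The labels give postnatal day 28, an age that the study's methods give for purchase, and each group held 10 mice, which were killed by exsanguination. For muscle the study took a representative animal of each group and describes the lung work as alike, but whether a lung library holds RNA of 1 mouse or of a pool is not stated outright. A group has no replicate.

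Red blood cells of adult mice form in bone marrow and, under demand, in spleen, from progenitors that read erythropoietin through the receptor encoded by Epor. GATA1 and KLF1 switch on the genes of the lineage, among them the globins, heme synthesis enzymes and membrane proteins. The cells take up iron through the transferrin receptor encoded by Tfrc. They then build a membrane in which the anion exchanger band 3 (Slc4a1) is tied to the spectrin skeleton by ankyrin (Ank1) and protein 4.2 (Epb42). Reticulocytes, the young red cells that circulate after losing their nucleus, still hold such mRNA, and the lung is full of blood. GATA1 also acts in megakaryocytes, mast cells and eosinophils, and Tfrc is used by nearly all dividing cells.

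The deposited values are log2(normalized read count + 1), and whole reads were recovered from them. The libraries held between 9354381 and 13367843 reads, with 3 reads taken as the floor, which is 0.224 to 0.321 CPM. Intervals are 95% exact (Clopper-Pearson) intervals of a ratio of reads, carried to the authors' library scaling, and cover counting error only. They do not cover the spread between mice. The 6 adult hemoglobin symbols took 14.3% of all reads in the normal control, 14.2% with exercise, 1.43% with tumor and 31.4% with both. Hbb-b1 and Hbb-bs were close in number in every library (680662 and 689686 reads in E(+)T(+)), so a read may count for both. The alveolar marker list, which includes the surfactant gene Sftpc, summed to 33438 in E(-)T(+) and to between 187182 and 279433 in the other libraries on the normalized count scale. Lung markers were thus present in all 4 libraries and lowest in E(-)T(+).

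Short promoter stretches are shown as background because GATA1 and KLF1 bind known words in DNA. All 8 genes, which were selected on values of these libraries, were highest in the same library. The part of either factor in this was not tested. The shared highest library held on the authors' scaling, for 7 of the genes beyond counting error. Scaled by library totals, Tfrc was lower in that library, E(+)T(+), than in E(-)T(-) and E(+)T(-). The windows were the 250 bases before each RefSeq start (GRCm38.p6). The promoter set used here held an entry for 6 of the 8 genes, with 2 starts for Tfrc. The GATA words searched were AGATAA and, with another last letter, AGATAG, as well as the forms with another first letter, TGATAA and likewise TGATAG. For the KLF word the letters were CCNCNCCC. Both strands were searched, and overlapping matches were counted. Over all 32851 windows, 26.5% held a GATA word, 45.9% the KLF word and 8.19% both. A GATA word was found for Epb42, Klf1, Trim10 and Epor, each on the other strand, and none of these letters was in the windows of Gata1 and Tfrc. The KLF word was found 3 times for Gata1, 4 times for Epor, and 3 times and 2 times at the starts of Tfrc. The matches for Gata1 and those at the second start of Tfrc lay inside the annotated span of the gene. The Epor window was the window among them with both words. The stretches around the 4 GATA matches run 5′ to 3′ along the gene, with the match in capitals.
Epb42, chr2:121037073-121037127, minus strand, match 221 bases before the start: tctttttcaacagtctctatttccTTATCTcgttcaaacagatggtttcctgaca
Klf1, chr8:84901872-84901927, plus strand, match 75 bases before the start: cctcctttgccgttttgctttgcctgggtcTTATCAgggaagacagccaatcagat
Trim10, chr17:36869381-36869446, plus strand, match 158 bases before the start: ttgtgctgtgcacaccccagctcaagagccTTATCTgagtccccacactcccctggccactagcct
Epor, chr9:21963595-21963660, minus strand, match 49 bases before the start: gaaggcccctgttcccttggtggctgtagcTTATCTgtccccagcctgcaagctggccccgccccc
A match describes the letters of the window and is not a measured binding site.

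Slc4a1 encodes band 3, which exchanges chloride for bicarbonate across the red cell membrane and anchors the skeleton. It lies on the minus strand of chr11:102348824-102366203 (mm10). Its normalized read count was 150 in the normal control, 104 with exercise alone, 18.7 with tumor alone and 2718 with both, from 177, 113, 17 and 2326 reads. The cancer exercise library stood far above the other 3, and the cancer control library was the lowest. The log2 difference of E(+)T(+) to E(-)T(+) was 7.11 (interval 6.51 to 7.97), and to E(-)T(-) it was 4.17 (3.96 to 4.41). Without exercise, the tumor library was lower than the control by 2.94 on the log2 scale, with an interval of -3.83 to -2.29. Running without tumor went with a small difference, -0.53 (-0.89 to -0.19).

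Epb42 encodes protein 4.2, which binds band 3 and ankyrin and stabilizes their link. The gene is on the minus strand of chr2:121017891-121037072. It had 25 reads in the cancer exercise library, a normalized count of 28.6, and 0 in each of the other 3. Of the 8 genes it was the one with reads in a single library. With the floor of 3 reads put in place of 0 in the other library, E(+)T(+) was 8.89-fold higher than the cancer control. In the same way it was 10.6-fold higher than the normal exercise library and 11.5-fold higher than the normal control. Folds against the floor are no lower limits. The exact intervals start below them, at log2 ratios of 2.75, 3.0 and 3.11. For the pairs of libraries with 0 reads, a difference was not detectable at this depth.

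Ank1 encodes ankyrin-1, which joins band 3 to beta-spectrin. It lies on the plus strand of chr8:22974844-23150497, a span that overlaps 5 other annotated genes, Mir486 and the antisense gene Gm15816 among them. The use of strand in counting is not given in the sources used here, so reads of overlapping genes cannot be told apart. Gm15816 had 3, 3, 4 and 4 reads. Ank1 had 0 reads in the normal control, 5 with exercise alone, 9 with tumor alone and 41 with both, which gave normalized counts of 0, 4.54, 9.91 and 47.5. E(+)T(+) was again the highest library, and here the normal control was the lowest. The log2 difference of E(+)T(+) to E(-)T(+) was 2.15 (1.22 to 3.51). Against the floor E(+)T(+) was 18.8-fold higher than E(-)T(-), with an exact lower end at a log2 ratio of 3.87. In contrast to Slc4a1, Ank1 had more reads in the cancer control than in the normal control, 3.87-fold against the floor, with an exact lower end at a log2 ratio of 1.35. The 5 reads of E(+)T(-) against 0 were within counting error, with an interval that starts at -0.01.

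Gata1 encodes the factor that starts and maintains the red cell program. The gene is on the minus strand of chrX:7959260-7978071. Its normalized count was 0.745 in the normal control, 17.4 with exercise alone, 16.5 with tumor alone and 190 with both, from 1, 19, 15 and 163 reads. The normal control was the lowest, the 2 libraries with only exercise or only tumor lay close together, and the library with both was the highest. The log2 difference to the normal control was 3.40 (1.71 to 9.74) with exercise alone, 3.33 (1.57 to 9.67) with tumor alone and 6.77 (5.31 to 13.12) with both. The 1 read of the normal control makes the upper ends of these intervals wide. Between the libraries with exercise, tumor went with a difference of 3.38 (2.76 to 4.22), and between those with tumor, exercise went with 3.45 (2.77 to 4.41).

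Klf1 encodes the erythroid Krüppel-like factor, which activates adult beta-globin and membrane genes. Its position is on the plus strand of chr8:84901928-84905291. The normal control held 5 reads, exercise alone 1, tumor alone 5 and the cancer exercise library 70, and the normalized counts were 4.13, 0.861, 5.55 and 81.3. The first 3 libraries lay within counting error of their neighbors, and E(+)T(+) stood above all of them. The log2 difference of E(+)T(+) was 3.65 (2.61 to 5.57) to E(-)T(+), 5.47 (3.95 to 11.80) to E(+)T(-) and 4.00 (2.98 to 5.93) to E(-)T(-). Exercise without tumor gave -1.46, with an interval of -7.77 to 0.95 that spans zero.

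Trim10 encodes a RING finger protein needed for terminal red cell maturation. It lies on the plus strand of chr17:36869574-36877833. Its normalized count was 16 in the normal control, 20.2 with exercise alone, 0.0607 with tumor alone and 165 with both, from 19, 22, 0 and 142 reads. As with Slc4a1, the cancer control was the lowest library and the cancer exercise library the highest. E(+)T(+) was 50.5-fold higher than E(-)T(+) against the floor, with an exact lower end at a log2 ratio of 5.34. Without exercise, the tumor library was 4.91-fold lower than the control against the floor, with the exact interval ending at a log2 ratio of -1.86. The difference of E(+)T(+) to E(+)T(-) was 2.98 (2.38 to 3.76), and exercise without tumor gave 0.31 (-0.63 to 1.29), within counting error.

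Epor encodes the erythropoietin receptor of red cell progenitors, which endothelial cells also carry. The gene is on the minus strand of chr9:21958897-21963506. The normal control held 21 reads, exercise alone 12, tumor alone 3 and the cancer exercise library 37, and the normalized counts were 17.8, 11, 3.36 and 43. The order of the libraries was that of Slc4a1, over a narrower range, and the steps between the lower 3 libraries were each within counting error. The top step, from E(-)T(-) to E(+)T(+), was a log2 difference of 1.22 (0.47 to 2.12). E(+)T(+) lay above E(-)T(+) by 3.33 (2.06 to 6.06) and above E(+)T(-) by 1.88 (1.0 to 3.05). Tumor without exercise gave -2.11 (-4.83 to -0.70). Scaled by library totals, the difference of E(+)T(+) to E(-)T(-) was 0.75, below 2-fold. Epo, which encodes the hormone itself and is made mainly in kidney, had 0 reads in all 4 libraries.

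Tfrc encodes the transferrin receptor, and it was the gene of the 8 with the smallest range. Its position is on the plus strand of chr16:32608920-32632794. Its normalized count was 606 in the normal control, 668 with exercise alone, 440 with tumor alone and 701 with both, from 713, 727, 402 and 600 reads. The upper 3 libraries lay within counting error of their neighbors, since E(+)T(+) and E(+)T(-) differed by 0.07 (-0.09 to 0.23) and E(+)T(-) and E(-)T(-) by 0.14 (-0.01 to 0.29). Over both steps, E(+)T(+) lay above E(-)T(-) by 0.21 (0.05 to 0.37), beyond counting error on the authors' scaling. The cancer control lay below the normal control by 0.46 on the log2 scale (-0.64 to -0.28), and exercise with tumor gave 0.67 (0.49 to 0.86). No comparison of Tfrc passed 2-fold. Scaled by library totals, Tfrc in E(+)T(+) was lower than in E(-)T(-), at -0.29, and than in E(+)T(-), at -0.34, and the difference to E(-)T(+) was 0.06.

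**Figure D1:**
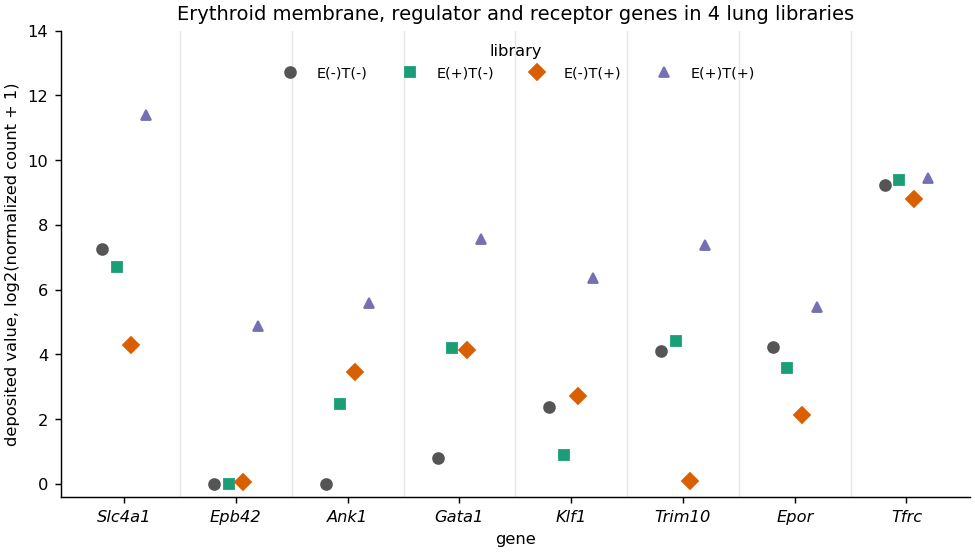
The deposited log2(normalized count + 1) value of each of the 8 genes, with a point for each library. The cancer exercise library is the highest for all 8 genes, from 4.89 for Epb42 to 11.41 for Slc4a1, while Tfrc stays between 8.79 and 9.46 in all 4 libraries.

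Side by side, the comparisons fell into 2 kinds. A difference of at least 2-fold was counted, the size used by the study, among the 15164 rows whose normalized counts averaged 4 or more, which all 8 genes were. Without E(+)T(+), Epb42 and Klf1 would have had means of 0.0151 and 3.51, so these 2 passed only through the library in which they were high. In the exercise effect with tumor, 7 of the 8 genes were at least 2-fold higher and 0 lower, all but Tfrc, where 24.3% of all rows were higher and 17.7% lower. The same 7 genes were higher and 0 lower in the tumor effect with exercise (14.9% of all rows higher and 13.0% lower) and in tumor and exercise together (14.8% and 14.4%). The medians of the 8 genes in these comparisons were 3.55, 3.25 and 4.09 on the log2 scale, and the medians of all rows were 0.01, -0.00 and -0.02. The 3 comparisons share the E(+)T(+) library and are not independent of each other.

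The comparisons without that library were mixed. In the tumor effect without exercise, Ank1 and Gata1 were at least 2-fold higher and Slc4a1, Trim10 and Epor lower, where 20.6% of all rows were higher and 25.7% lower. In the exercise effect without tumor, Gata1 and Ank1 were higher and Klf1 was lower, where 5.28% of all rows were higher and 4.70% lower. Of these 3, the interval of Gata1 lay clear of zero. Slc4a1, Trim10 and Epor were thus at least 2-fold lower in the tumor effect without exercise and higher in that with exercise, as were 1.93% of all rows, and Klf1 was lower in the exercise effect without tumor and higher in that with tumor, as were 1.46%. Opposite directions of either kind, in either contrast, were found in 4 of the 8 genes and 5.05% of all rows, and nothing is read from this count, since the 8 genes were selected on values of these libraries. The medians of the 8 genes were -0.20 in the tumor effect without exercise and 0.07 in the exercise effect without tumor. Scaling by library totals moved the median of all rows in the comparisons with E(+)T(+), to -0.59, -0.41 and -0.52 on the log2 scale in the order above, and in the exercise effect with tumor the share of higher rows among those past 2-fold from 57.8% to 31.6%. In the other 2 the share went from 53.5% to 28.2% (tumor effect with exercise) and from 50.7% to 24.3% (both together), and in the latter it was 40.1% with totals that leave out hemoglobin. Under library totals 7, 7 and 6 of the 8 genes were still at least 2-fold higher in these comparisons.

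**Figure D2:**
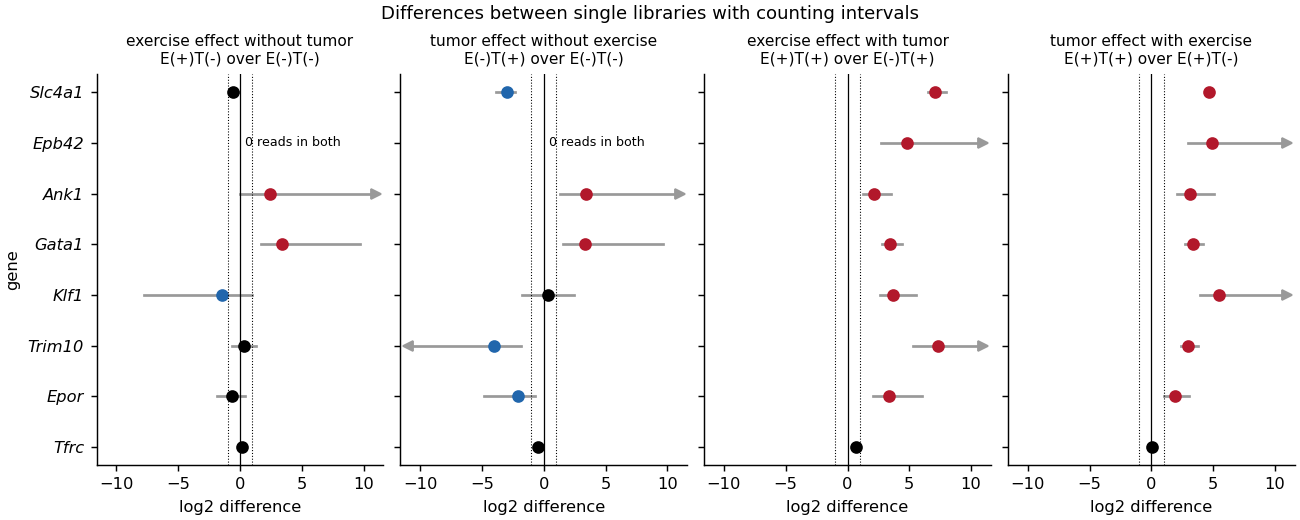
Log2 differences of the 8 genes (points) in 4 comparisons, with 95% exact counting intervals of the read ratio (gray lines, with an arrow where the interval has no end in range); red and blue mark at least 2-fold higher and lower, and the dotted lines 2-fold. In both comparisons with E(+)T(+), 7 of 8 points lie on the higher side past 2-fold, while points lie on both sides in the comparisons without it.

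Hemoglobin reads, the most abundant erythroid reads of these libraries, give a scale on which the other genes can be read. Fewer cells of a type and less RNA per cell cannot be told apart in such bulk libraries. Slc4a1 had 9.49 reads per 100000 hemoglobin reads in the normal control, 6.24 with exercise alone, 12.7 with tumor alone and 55.4 with both. On this scale E(-)T(+) and E(-)T(-) differed by less than counting error, at a ratio of 1.34 (interval 0.764 to 2.21). E(+)T(+) remained 5.84-fold (5.01 to 6.84) above E(-)T(-) and 4.35-fold (2.71 to 7.48) above E(-)T(+). Alas2, which encodes the erythroid enzyme that begins heme synthesis, ran from 253 to 322 over the 4 libraries, so it moved nearly in step with hemoglobin where Slc4a1 did not.

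The regulators took another order per hemoglobin read. Gata1 had 0.0536 reads per 100000 in the normal control, 1.05 with exercise alone, 11.2 with tumor alone and 3.88 with both. Its highest value was therefore in the cancer control, and E(+)T(+) was at 0.346 of it (0.203 to 0.632). Ank1 had the same order, with 0, 0.276, 6.73 and 0.976 reads per 100000. Klf1 had 0.268, 0.0552, 3.74 and 1.67, and its last 2 values differed by less than counting error, at a ratio of 0.445 (0.182 to 1.41). Epor had 1.13, 0.663, 2.24 and 0.881, with E(+)T(+) to E(-)T(-) at a ratio of 0.782 (0.446 to 1.41). Trim10 had 1.02, 1.21, 0 and 3.38, and E(+)T(+) was 3.32-fold above E(-)T(-) (2.05 to 5.67). Epb42 had 0.595 in E(+)T(+) and 0 in the rest. In E(-)T(+) the interval for 0 reads reached 2.76, so these 2 libraries could not be ordered. Tfrc, which has many sources besides red cells, had 38.2, 40.1, 301 and 14.3, the reverse of the order of the hemoglobin share. Its reads ran from 402 to 727 and the hemoglobin reads from 133643 in E(-)T(+) to 4201521 in E(+)T(+), so the denominator sets this order. Any gene whose reads do not follow hemoglobin is raised in E(-)T(+) on this scale, which bears on Gata1 and Ank1 too. With reads of Hba-a1 alone as the denominator, Slc4a1 in E(+)T(+) was 6.16-fold above E(-)T(-) and 4.62-fold above E(-)T(+). Both this denominator and the hemoglobin scale itself were not planned before the data were seen.

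**Figure D3:**
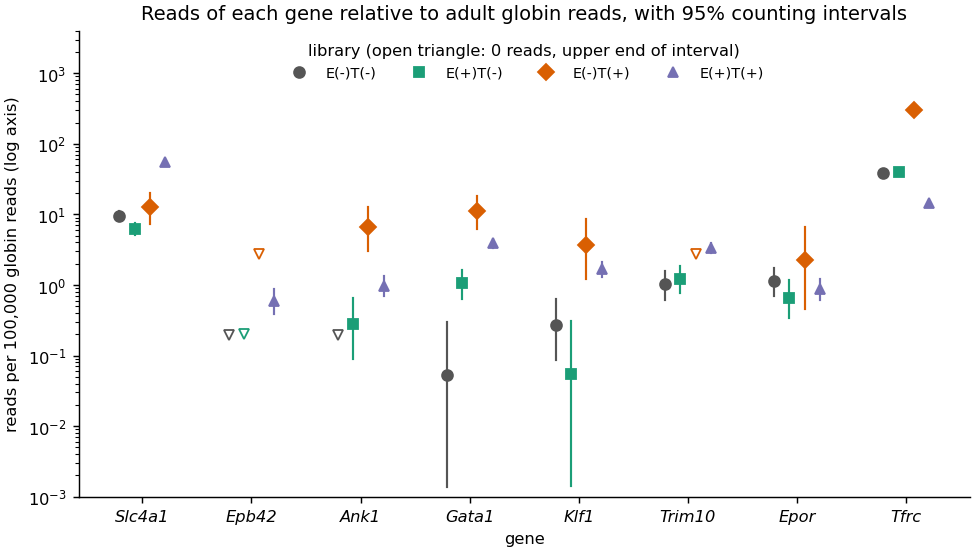
Reads of each gene per 100000 reads of the 6 adult hemoglobin symbols on a log axis, with 95% exact counting intervals as lines and open triangles at the upper end of the interval for 0 reads. Slc4a1 is highest in E(+)T(+) at 55.4, whereas Gata1 and Ank1 are highest in E(-)T(+) at 11.2 and 6.73.

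Other genes of red cell development followed in 6 lists by function, of which 97 genes besides the 8 passed the same count limit. In the exercise effect with tumor, 60 of the 97 were at least 2-fold higher and 4 lower, with a median of 1.61. In the tumor effect with exercise 47 were higher and 3 lower (median 0.87), and with both together 48 and 5 (median 0.98). Scaled by library totals, these comparisons had 49 higher and 7 lower, 41 and 9, and 42 and 10 in turn. Without exercise, the tumor library had 10 higher and 38 lower, with a median of -0.69. Exercise without tumor gave 7 and 6, with a median of 0.05. Of the 97, 5 passed the count limit only through E(+)T(+), 3 of them membrane genes, and had to be higher there. Without these 5, a choice made after seeing the data, the exercise effect with tumor had 55 of 92 higher and 4 lower (median 1.52), and the tumor effect with exercise 42 and 3 (median 0.60). The lists were chosen with earlier results of these data known, and these counts stand beside the shares over all rows given above.

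Among 23 further membrane genes, 15 were higher and 1 lower in the exercise effect with tumor (median 2.19), and without the 3 genes above 12 of 20 were higher and 1 lower (median 1.73). Sptb, which encodes the beta-spectrin that ankyrin binds and was picked for that role after its values were seen, had 18, 21, 10 and 40 reads and a difference of 1.98 (1.07 to 3.26). Epb41, which encodes protein 4.1 and is 1 of the 4 genes of the list with the highest mean, had a difference of 2.79 (2.71 to 2.87). The other 3 genes with the highest means were inside 2-fold, Cd47 at 0.07, the tropomodulin gene Tmod3 at 0.31 and the water channel gene Aqp1 at 0.70. The urea transporter gene Slc14a1 went the other way, with 10 reads in the normal control, 355 in the cancer control and 16 in the cancer exercise library, a difference of -4.29 (-5.20 to -3.66). The glucose transporter gene Slc2a1 was at -0.86.

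Among 16 further transcription factor genes, 11 were higher and 2 lower in that comparison (median 2.24). Without Gfi1b, 1 of the 5 genes above, 10 of 15 were higher and 2 lower (median 2.0). Zfpm1, which encodes the GATA1 partner FOG1 and was picked for that role, had 365, 324, 84 and 551 reads and a difference of 2.79 (2.47 to 3.16). E2f2, a cell cycle regulator of late erythroblasts, was at 3.75 (3.45 to 4.08), and Cbfa2t3, a partner of the TAL1 complex, at 2.48 (2.28 to 2.70). Klf3, 1 of the 4 genes of the list with the highest mean, was inside 2-fold at 0.60 (0.53 to 0.68). Gata2, the GATA factor of earlier progenitors, was at -0.15 (-0.34 to 0.04), Ldb1 at -1.20 and E2f4 at -1.31. In the tumor effect with exercise this list had 5 higher and 3 lower (median 0.26), beside differences of 3.38 for Gata1 and 5.47 for Klf1. Gata2 was lower there by 1.29 on the log2 scale (-1.45 to -1.14).

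Of the 17 genes of iron uptake and heme synthesis tested besides Tfrc, 6 were higher and 0 lower in the exercise effect with tumor (median 0.90). These included Alas2 at 5.12 (4.98 to 5.27) and Slc25a37, the mitochondrial iron importer gene of erythroid cells, at 3.0 (2.88 to 3.12). The ferritin genes Fth1 and Ftl1, which all tissues use, were at 0.00 and 0.98. Abcb10, Cpox and Ppox were at -0.01, -0.29 and -0.14. Tfr2, which encodes a second transferrin receptor and was picked for its likeness to Tfrc, had 0, 1, 0 and 12 reads.

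Of the 13 genes of erythropoietin signaling tested besides Epor, 8 were higher and 0 lower (median 1.25). Jak2 and Stat5a, the kinase and a factor that the receptor acts through, were inside 2-fold at 0.87 (0.64 to 1.09) and 0.37 (-0.04 to 0.78), and Stat5b was at -0.15. Cish, a feedback gene of STAT5, was at 2.58 (2.40 to 2.78), Lyn at 1.92, Socs3 at 1.25 and the survival gene Bcl2l1 at 0.32. Cish, Lyn and Socs3 also serve other blood cells. The 6 hemoglobin genes tested were all higher, by 4.15 to 5.59. Of 22 late maturation genes besides Trim10, 14 were higher and 1 lower (median 2.39), and without Cldn13, also among those 5, 13 of 21 were higher and 1 lower (median 2.06). Bpgm, the red cell enzyme that makes 2,3-bisphosphoglycerate, was at 4.71 (4.49 to 4.96) and Mkrn1 at 2.06, while Bnip3l, needed to clear mitochondria, was at 0.57 and Bsg at 0.42. Kcnn4 was at -1.43, Rundc3a at -0.75 and Mgst3 at -0.43.

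**Figure D4:**
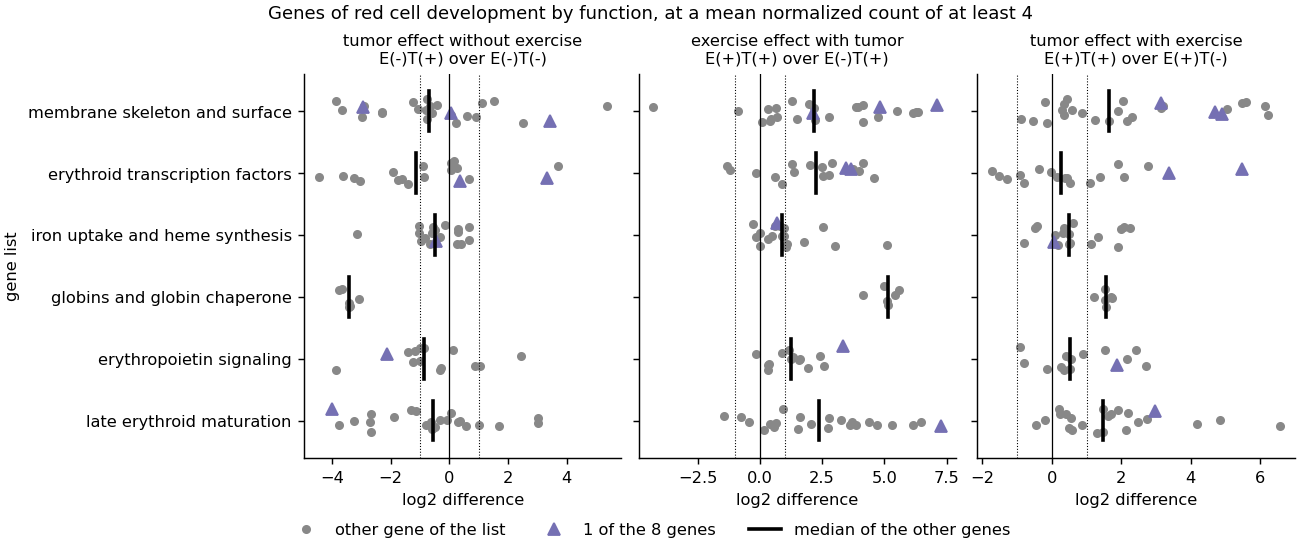
Log2 differences of single genes in 3 comparisons by list, with gray points for the other genes of a list, triangles for the 8 genes and a black bar at the median of the other genes; dotted lines mark 2-fold. The medians lie between -3.42 and -0.48 in the tumor effect without exercise and between 0.90 and 5.14 in the exercise effect with tumor.

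Markers of other cells moved with the same library. The summed normalized count of 11 megakaryocyte and platelet genes, such as Pf4 and Itga2b, was 2673 in the normal control, 4687 with exercise alone, 6608 with tumor alone and 30219 with both. As for Gata1, which those cells use, the normal control was the lowest and the cancer exercise library the highest. Pf4 alone gave 4665 of the sum with tumor alone, and without Pf4 the sums were 1632, 3123, 1943 and 16575, so that tumor alone then lay below exercise alone. All 11 were at least 2-fold higher in the tumor effect with exercise and with both together, as were 14.9% and 14.8% of all rows. The mast cell and basophil list, from cells of which some also use Gata1, summed to 626, 1092, 424 and 2751, of which Hdc gave 549, 985, 330 and 2491. Without Hdc it summed to 77, 107, 94.4 and 260, with the normal control in place of the cancer control as the lowest. Of these sums Tpsab1 gave 0.745 in the normal control and 59 in the cancer control, so this change of the lowest library rests on Tpsab1. The eosinophil list summed to 84.2, 153, 11.2 and 49.2, and without Siglecf to 6.74, 46.2, 4.52 and 21. The genes of these lists did not share an order of the libraries. Of the 8 mast cell and basophil genes tested, 6 were at least 2-fold higher and 1 lower in the exercise effect with tumor. Over all rows 24.3% were higher and 17.7% lower. The 1 lower gene, the tryptase gene Tpsab1, had 1, 2, 54 and 20 reads, and the chymase gene Cma1 had 39, 30, 6 and 17. The basophil gene Mcpt8, picked after its values were seen, had 0, 1, 0 and 60. It is among the 6 and passed the count limit only through E(+)T(+), the library in which it was high. Of the eosinophil genes, Prg2 had 0, 12, 3 and 14 reads and Ccr3 had 4, 33, 0 and 4, and the eosinophil peroxidase gene Epx was at 0 reads in all libraries but E(+)T(-), which had 1. The part of these cells in the Gata1 values was not tested.

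Lists of other blood, lung and dividing cells differed between the libraries as well. Genes of mature neutrophils summed to 3716, 11668, 8962 and 195374, and genes of neutrophil precursors in marrow to 182, 348, 2032 and 4992. Without Ngp the precursor sums were 161, 187, 1865 and 1944. Of the 7 precursor genes, 5 were at least 2-fold higher and 1 lower in the exercise effect with tumor (median 3.47). Over all rows 24.3% were higher and 17.7% lower. Among the 5, Elane passed the count limit only through E(+)T(+), the library in which it was high. The 1 lower gene, the lactoferrin gene Ltf, gave 1709 of the 1865 in the cancer control and 648 of the 1944 in the cancer exercise library. The closeness of these sums thus rests on Ltf. Cell division genes, which growing tumor cells use as well, summed to 533, 798, 10765 and 3676, highest in the cancer control. Some of these sums turn on a single gene. Stem and progenitor genes summed to 3977, 4305, 9019 and 3526, and without Cd34, which endothelial cells also use, to 2468, 2293, 1168 and 1314, where the cancer control turned from the highest library to the lowest. Red pulp macrophage and iron recycling genes summed to 4707, 6591, 3648 and 10838. Without Hp, the haptoglobin gene, they summed to 924, 915, 2395 and 1513, and the cancer control was the highest. Lung endothelial genes, from cells that also carry Epor, summed to 24130, 24068, 2687 and 19019. B cell genes summed to 711, 531, 12.3 and 227, and T cell genes to 430, 395, 67.3 and 394. The cancer control was thus lowest for both Epor and the endothelial list, and the part of these cells in the values of the 8 genes was not tested.

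**Figure D5:**
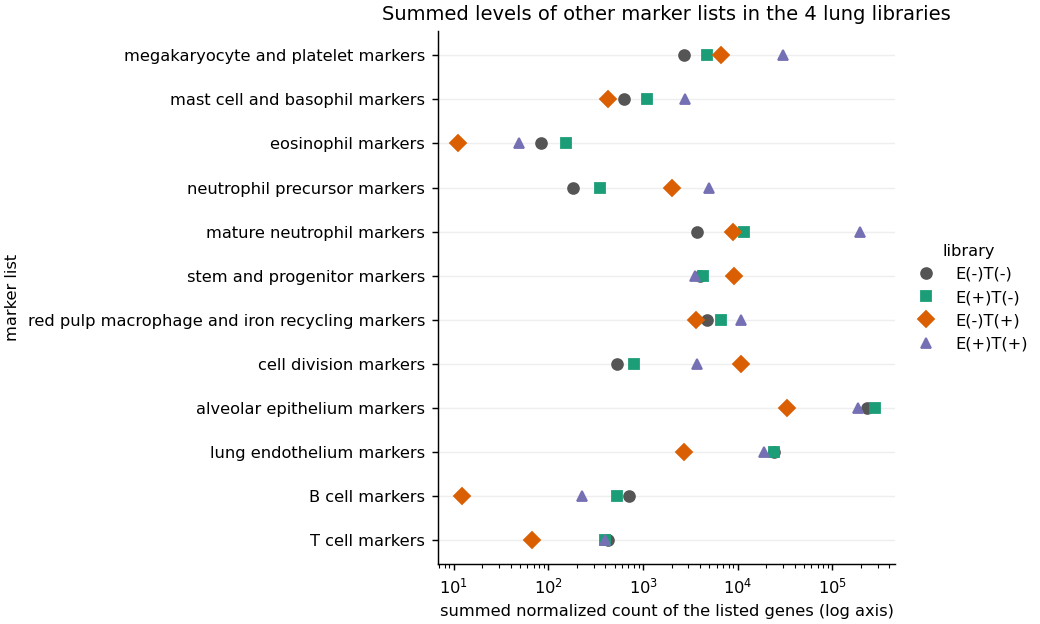
Summed normalized counts of 12 other marker lists on a log axis, with a point for each library. Megakaryocyte, mast cell and neutrophil lists are highest in E(+)T(+), as is the red pulp list only through Hp, and endothelial, alveolar, B cell and T cell lists are lowest in E(-)T(+).

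The rows with the nearest profile were found for each gene by the Euclidean distance of mean-centered log2 values over the 4 libraries. The 11210 rows compared had normalized counts that averaged 50 or more, and rows with Hba or Hbb symbols were left out. How near those hemoglobin rows lie is thus not shown by the neighbors named here. Nearness over 4 points is a description. Among the rows nearest to Slc4a1 were the globin-like gene Hbq1b (0.89) and Trim10 (1.52). Among those nearest to Trim10 were Slc4a1 (1.52) and Alas2 (1.55). These rows share the low value in E(-)T(+) and the high one in E(+)T(+). Nearest to Klf1 were the Rh blood group gene Rhd (0.63), the neutrophil gene Cd177 (1.18) and Cxcl2 (1.22).

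Ngp (0.68) and Retnlg (1.0), both neutrophil genes, and Mfsd2b (0.89), which encodes a sphingosine-1-phosphate exporter of red cells and platelets, were nearest to Gata1. Ngp had log2 values of 4.47, 7.34, 7.39 and 11.57, beside 0.80, 4.20, 4.13 and 7.58 for Gata1. Alb (0.93), Mfsd2b (1.0) and Clec4e (1.07) were nearest to Ank1, and Abcb4 (0.95), Cxcl2 (1.14) and Trem1 (1.14) to Epb42. Hoxa5 (0.24), Mmrn1 (0.30) and Cd52 (0.38) were nearest to Epor. Tfrc had the closest neighbors, 2210015D19Rik (0.03), Rabac1 (0.05) and Arhgap30 (0.05).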

How the data were processed

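The authors used QuantSeq 3′ mRNA-Seq libraries (primed at poly(A) tails), aligned reads with Bowtie2, counted them with bedtools and normalized with edgeR's quantile method. The submitters' processing notes name mm10. Versions, annotation and strand use are not given in the sources used here. The deposited log2 values are log2(normalized read count + 1) at 3 decimals, 1 table for each library. Whole reads were recovered with a negative binomial quantile model (dispersion 0.373), which returned 100% of values within 0.001 and resolved 94.6% to 1 read. The step was tested on simulated data. Library totals were 9354381 to 13367843 reads, counted over rows that can share reads. Python 3.11.15, numpy 2.4.6, scipy 1.17.1 and pandas 2.3.3 were used. Differences are between deposited log2 values and understate the change of low genes. With 1 library per group no test was run. The 8 genes and all lists were chosen with earlier results of these data known. Named from each list were the 4 genes with the highest mean and those against the list's direction in the exercise effect with tumor, and for each of the 8 genes the 3 nearest rows. Some rows that this rule names are not reported here. Gene positions are from GENCODE for mm10 and promoters from RefSeq. Alternatives were 3 scalings, pseudocounts of 4 and 0.5, a fold of 4, other count limits and another measure of nearness. The hemoglobin scale, and another denominator for it as a further alternative, were not planned before the data were seen.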

Additional observations from a re-analysis of the deposited data

Results flagged for a closer look

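Of the 8 genes, 4 went opposite ways under the same contrast, with both differences at least 2-fold, as did 5.05% of all rows. The tumor effect was below zero without exercise and above zero with exercise for Slc4a1 (-2.94 and 4.70, a gap of 7.64 on the log2 scale), Trim10 (-4.00 and 2.98, a gap of 6.98) and Epor (-2.11 and 1.88, a gap of 3.99). For Trim10 the first value is 0 reads against 19 and is set by the pseudocount, being -2.30 with a pseudocount of 4, so its gap is no exact size. The exercise effect of Klf1 was -1.46 without tumor and 3.65 with tumor, a gap of 5.12, where the first value rests on 1 read against 5. Its interval of -7.77 to 0.95 spans zero, and with a pseudocount of 4 the value was -0.74, inside 2-fold. With 1 library per group the difference between the effects was not tested. The gaps rest on the same 4 libraries and are not independent of each other. Hemoglobin reads moved the same way in the tumor contrast, with a median difference of -3.42 without exercise and 1.55 with exercise over the 6 genes tested.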

How the results depend on the processing

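No paired analysis was possible because each group has 1 library. Of 190 recomputed differences of the 8 genes, 182 stayed within the counting interval, 8 moved outside it (5 with library totals, 1 with totals without hemoglobin and 2 with a pseudocount of 4) and 0 of those past 2-fold changed sign. Pairs with 0 reads in both libraries, which Epb42 had, give no interval and are not counted. Tfrc, inside 2-fold throughout, changed sign with library totals in the tumor effect with exercise (0.07 to -0.34) and with both together (0.21 to -0.29), and with totals without hemoglobin in the former (-0.02). The counts of the 8 genes past 2-fold kept within 1.5 times, but in the exercise effect without tumor the genes lower went from 1 to 0 with a pseudocount of 4, where Klf1 was at -0.74, and at a fold of 4. For the other erythroid genes, the count past 2-fold in the exercise effect without tumor went from 13 to 8 with a pseudocount of 4, 3 at a fold of 4 and 5 at a mean of at least 50. At a fold of 4 it went from 48 to 29 in the tumor effect without exercise, from 50 to 25 in the tumor effect with exercise and from 53 to 23 with both. Over all rows, the share past 2-fold in the exercise effect without tumor went from 9.98% to 2.66% at a fold of 4 and 2.88% at a mean of at least 50. At a fold of 4 it went from 46.2% to 21.4%, 42.0% to 16.4%, 27.8% to 8.64% and 29.2% to 9.34% in the other comparisons in turn. Fewer rows pass a higher limit by construction. The nearest rows shared at least 2 of 3 with the other measure for 8 of 8 genes and all 3 for 4. Depth limits Epb42, Ank1, Klf1, Gata1, Trim10 and Epor, which had 0 to 3 reads in at least 1 library.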
